A study of Mus musculus with 10 samples.

Results

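The circadian clock genes described here are Per1, Per2, Cry1, Cry2, Nr1d1, Nr1d2, Dbp, Arntl, Clock and Noct, chosen by gene symbol in the count table. All 10 were among its 35725 gene rows, each symbol in 1 row, and all 10 passed the filter on low counts among 15586 genes tested. RNA was sequenced from eosinophils sorted by flow cytometry from the lungs of male mice, with 5 libraries from P2ry14-null mice and 5 from wild-type C57BL/6J mice (WT). For P2ry14-null mice the labels name no strain beyond that genotype. They give no age for either group and do not say whether libraries are from different mice, so p-values measure the spread between these libraries, which may be technical. Both groups had the same asthma protocol. It consisted of 2 oropharyngeal sensitizations with 50 µg of ovalbumin plus 20 µg of Aspergillus oryzae protease, an aerosol of 1% ovalbumin 7 days after the last of them, and cell purification 16 h after that challenge. The interval from the challenge is thus known, but the labels used here give no hour of the day. The clock genes were compared between genotypes and between libraries.

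The circadian clock is a loop of transcription factors that runs in nearly every cell. The proteins CLOCK and BMAL1 (the product of Arntl) switch on the Per and Cry genes through E-box sequences, and the PER and CRY proteins then block their own activators. In a second loop, BMAL1 and CLOCK switch on Nr1d1 and Nr1d2, whose REV-ERB proteins repress Arntl, so that Arntl and the REV-ERB genes peak at opposite times of day. DBP carries the rhythm to further genes through D-box sequences. Per1 and Per2 also respond quickly to signals from outside the loop, among them cyclic AMP, serum factors and glucocorticoids. Eosinophil numbers in blood follow a daily rhythm.

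The libraries held 67.2 to 151 M reads counted to genes in P2ry14-null and 118 to 185 M in WT, where M stands for 1000000. Levels are in CPM, a gene's counts per 1000000 counts of the library. The targeted gene P2ry14 averaged 23.2 ± 1.02 CPM in P2ry14-null and 211 ± 16.0 CPM in WT (SD, n = 5 each; edgeR adjusted p = 3.74e-12). Summed levels of 6 eosinophil markers (Siglecf, Ccr3, Prg2, Epx, Il5ra and Ear6) ran from 3733 to 4086 CPM in P2ry14-null and from 3612 to 4146 CPM in WT. P2ry14-null library 2 stood apart in markers of other cells. By summed CPM it was the highest library in 5 of 9 marker lists, though such a sum mainly follows the most abundant genes of a list. It had 417 CPM summed over 4 class II antigen presentation genes against 72.3 to 116 CPM in the other 4 P2ry14-null libraries and 103 to 140 CPM in WT. Its 6 alveolar macrophage genes summed to 2154 CPM, against 727 to 850 CPM in the other 4 P2ry14-null libraries and 775 to 998 CPM in WT. Most of that sum was Chil3, which reached 1520 CPM in P2ry14-null and 524 CPM in WT. Fabp4, Pparg, Mrc1 and Car4 also had a higher maximum in P2ry14-null than in WT. Marco did not, with at most 0.078 CPM in P2ry14-null and 0.142 CPM in WT. Heat shock genes also differed by value, with sums over 5 genes of 372 to 815 CPM in P2ry14-null and 673 to 928 CPM in WT. All 5 were lower in P2ry14-null (median log2 fold change -0.55), and edgeR called 0 of them. Dnajb1 ran from 40.2 to 54.8 CPM in P2ry14-null and from 56.3 to 73.4 CPM in WT (edgeR adjusted p = 0.400). Its groups did not overlap, as in 0.648% of all tested genes, while those of the other heat shock genes did. In bulk RNA, fewer cells of a type and less RNA per cell cannot be told apart.

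Promoters of 9 of the 10 genes, all but Per2, were matched in the RefSeq table (build GRCm38.p6, 250 bases before to 50 after an annotated start). They are shown for the genes that mark the ends of the results below: Per1, the most abundant, with both of its annotated promoters; Nr1d1, the least abundant; Arntl, the steadiest, with 1 of its 2 annotated promoters; and Cry1, whose window holds both E-box forms. Sequences read 5′ to 3′ on the gene's strand, and capitals mark matches to 5 short motifs searched on both strands. These were the E-box CACGTG, the variant E-box CACGTT, the D-box TTATGNAA, the REV-ERB and ROR element AGTAGGTNA, and the core of the cyclic AMP response element TGACGTC. They occurred in 7.15%, 4.68%, 3.38%, 0.591% and 3.21%, in that order, of 32851 promoter windows of 300 bases.
Per1, upstream promoter, chr11:69098699-69098998, plus strand: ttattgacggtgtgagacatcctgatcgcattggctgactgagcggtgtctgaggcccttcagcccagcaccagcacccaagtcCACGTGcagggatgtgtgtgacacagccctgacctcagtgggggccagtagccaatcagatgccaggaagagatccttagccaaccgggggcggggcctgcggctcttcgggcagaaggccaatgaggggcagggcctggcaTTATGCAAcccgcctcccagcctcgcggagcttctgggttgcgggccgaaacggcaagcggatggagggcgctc
Per1, downstream promoter, chr11:69099902-69100201, plus strand: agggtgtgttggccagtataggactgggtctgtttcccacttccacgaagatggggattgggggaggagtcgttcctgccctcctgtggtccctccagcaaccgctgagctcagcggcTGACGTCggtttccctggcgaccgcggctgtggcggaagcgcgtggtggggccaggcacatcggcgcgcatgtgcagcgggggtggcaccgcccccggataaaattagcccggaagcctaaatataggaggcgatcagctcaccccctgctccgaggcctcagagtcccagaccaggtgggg
Cry1, chr10:85185005-85185304, minus strand: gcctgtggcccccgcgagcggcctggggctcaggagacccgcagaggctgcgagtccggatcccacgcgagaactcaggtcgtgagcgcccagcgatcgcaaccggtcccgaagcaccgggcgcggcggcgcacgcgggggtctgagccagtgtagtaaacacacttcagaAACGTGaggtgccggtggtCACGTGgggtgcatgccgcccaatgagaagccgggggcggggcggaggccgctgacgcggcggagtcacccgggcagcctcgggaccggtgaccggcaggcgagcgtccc
Nr1d1, chr11:98775328-98775627, minus strand: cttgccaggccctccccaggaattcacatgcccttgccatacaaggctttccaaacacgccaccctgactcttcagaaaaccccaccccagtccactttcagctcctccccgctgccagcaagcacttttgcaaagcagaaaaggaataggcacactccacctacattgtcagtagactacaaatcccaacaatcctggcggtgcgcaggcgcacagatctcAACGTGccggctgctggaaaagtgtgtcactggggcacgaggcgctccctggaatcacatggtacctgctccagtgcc
Arntl, chr7:113207261-113207560, plus strand: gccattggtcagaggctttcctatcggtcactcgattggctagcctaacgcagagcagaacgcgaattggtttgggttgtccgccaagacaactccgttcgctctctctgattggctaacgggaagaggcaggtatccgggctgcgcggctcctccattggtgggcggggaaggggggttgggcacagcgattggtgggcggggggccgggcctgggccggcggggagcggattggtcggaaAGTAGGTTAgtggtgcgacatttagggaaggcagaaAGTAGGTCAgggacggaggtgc

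The upstream Per1 window held an E-box and a D-box, and the downstream one a match to the cyclic AMP response core. The Cry1 window held an E-box and a variant E-box, and that of Nr1d1 a variant E-box, the variant being read in both as AACGTG from the other strand. The Arntl window shown held the REV-ERB and ROR element at 2 places, starting at -8 and 28 relative to the annotated start of transcription. The other Arntl window, which overlaps it, held 1 match, at 38 from its own start. That match is the same genomic site as the one at -8 in the window shown. The windows of Cry2 and Noct, not shown, held a variant E-box and a D-box. No match was found in those of Dbp, Nr1d2 and Clock, which says only that these letters are not in these windows.

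No clock gene passed the test between genotypes. With edgeR's quasi-likelihood test, 0 of the 10 genes had an adjusted p under 0.05, where 6 of all 15586 genes (0.0385%) did. At an unadjusted p under 0.05, 1 of the 10 was lower (Per2) and 0 were higher, against 416 lower and 228 higher of all genes tested. By value 5 clock genes lay above 0 and 5 below, with a median log2 fold change of -0.01, beside 0.003 over all genes tested. All 10 had overlapping groups of libraries, where 0.648% of all genes did not overlap. DESeq2 and limma-voom also called 0 of the 10.

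**Figure D1:**
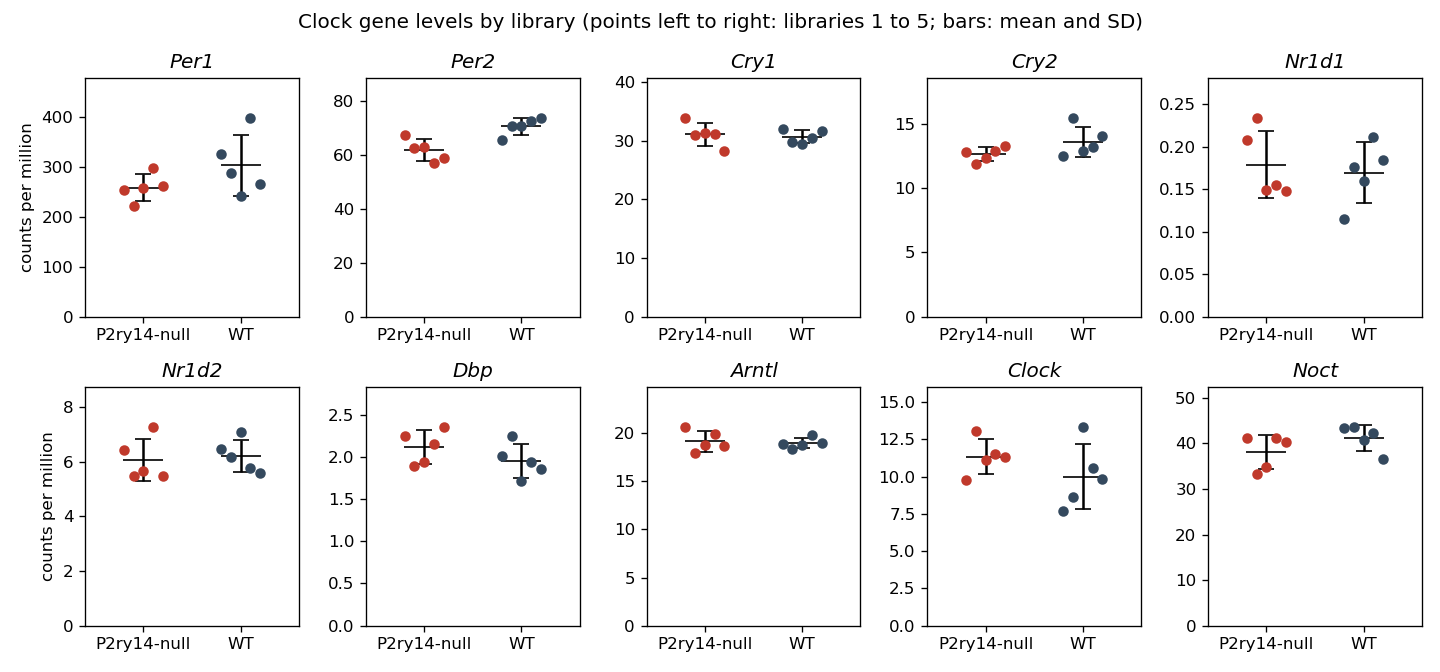
Level of each clock gene in CPM (vertical axes, each starting at 0) in the 5 P2ry14-null and 5 WT libraries, with points for libraries 1 to 5 from left to right and bars for the mean and SD. Per2 lies near 61.7 CPM in P2ry14-null and 70.6 CPM in WT with overlapping points, and Arntl lies between 18.0 and 20.7 CPM in all 10 libraries.

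Of the activators, Arntl was the steadiest clock gene. Arntl (gene ID 11865, chr7:113178470-113314126, plus strand, mm10) had 20.7, 18.0, 18.7, 19.9 and 18.7 CPM in P2ry14-null libraries 1 to 5, and 18.9, 18.3, 18.8, 19.8 and 19.0 CPM in WT libraries 1 to 5. The groups overlapped entirely, and the highest of the 10 libraries was 1.15 times the lowest. Its log2 fold change, P2ry14-null minus WT as throughout, was 0.02 ± 0.05 (SE; edgeR adjusted p = 0.999), with a 95% interval from -0.09 to 0.12.

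Clock, which encodes the partner of BMAL1 (gene ID 12753, chr5:76209868-76305000, minus strand), varied more. It had 9.77, 13.0, 11.1, 11.5 and 11.3 CPM in P2ry14-null libraries 1 to 5, and 7.69, 8.61, 13.3, 10.6 and 9.83 CPM in WT libraries 1 to 5. WT library 3 held the highest value and WT library 1 the lowest, so that the WT range enclosed the P2ry14-null one. P2ry14-null minus WT gave 0.18 ± 0.13 on the log2 scale (SE; edgeR adjusted p = 0.999). It was 0.31 without WT library 3 (edgeR adjusted p = 0.448), 0.10 without WT library 1. Leaving out P2ry14-null library 2, the library with markers of other cells, gave 0.13.

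Per1 and Per2 encode the period proteins, which with the cryptochromes inhibit CLOCK and BMAL1. Per2 (gene ID 18627, chr1:91415977-91459402, minus strand) had the smallest p of the 10 genes. Its levels were 67.4, 62.6, 62.8, 57.0 and 58.7 CPM in P2ry14-null libraries 1 to 5, and 65.4, 70.5, 70.5, 72.7 and 73.6 CPM in WT libraries 1 to 5. The overlap rested on P2ry14-null library 1, which lay above WT library 1 and below the other 4 WT libraries. The means were 61.7 ± 4.05 CPM in P2ry14-null and 70.6 ± 3.20 CPM in WT (SD, n = 5 each), a log2 fold change of -0.19 ± 0.05 (SE; 95% interval from -0.31 to -0.08). By its p Per2 ranked 40 among all 15586 genes, and its edgeR adjusted p was 0.999. In 16 alternative fits its log2 fold change stayed between -0.23 and -0.17, with adjusted p from 0.344 (DESeq2) to 1.00.

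Per1 (gene ID 18626, chr11:69095138-69109965, plus strand) was the most abundant clock gene and spread more. It had 255, 222, 258, 298 and 263 CPM in P2ry14-null libraries 1 to 5, and 327, 288, 242, 399 and 266 CPM in WT libraries 1 to 5. WT library 4 was the highest of all, while WT library 3 lay below 4 of the 5 P2ry14-null libraries. P2ry14-null minus WT gave -0.23 ± 0.12 on the log2 scale (SE; edgeR adjusted p = 0.999). It was -0.30 without WT library 3 (edgeR adjusted p = 0.475) and -0.11 without WT library 4. WT library 4 also held the highest level of the early growth gene Egr1, at 1014 CPM, against 305 to 493 CPM in P2ry14-null and 542 to 690 CPM in the other 4 WT libraries. It likewise had the most Hspa1a, a heat shock gene, at 4.10 CPM, against 0.504 to 1.36 CPM in P2ry14-null and 1.18 to 1.83 CPM in the other 4 WT libraries. Dnajb1, Fos, Fkbp5 and Tsc22d3, also compared with Per1 below, did not peak in WT library 4. There they had 58.7, 2529, 46.5 and 230 CPM. Their highest levels were 73.4 CPM (WT library 1), 2897 CPM (P2ry14-null library 3), 51.6 CPM (P2ry14-null library 4) and 454 CPM (WT library 1). The part of these genes in the level of Per1 was not tested beyond the correlations given below.

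The cryptochromes, light-insensitive repressors in mammals, lay close together between genotypes. Cry1 (gene ID 12952, chr10:85131700-85185054, minus strand) had 28.2 to 33.9 CPM in P2ry14-null (median 31.1) and 29.4 to 32.0 CPM in WT (median 30.5). Its log2 fold change was 0.02 ± 0.05 (SE), with a 95% interval from -0.09 to 0.13. Cry2 (gene ID 12953, chr2:92403646-92434214, minus strand) had 11.9 to 13.3 CPM in P2ry14-null (median 12.8) and 12.5 to 15.4 CPM in WT (median 13.2), a log2 fold change of -0.11 ± 0.06 (SE). The highest Cry2 value was in WT library 2, without which the difference was -0.06. Without WT library 1 it was -0.14. With all libraries, edgeR adjusted p was 0.999 for both genes.

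The REV-ERB genes differed from each other in level far more than between genotypes. Nr1d1 (gene ID 217166, chr11:98767932-98775377, minus strand), encoding REV-ERB alpha, was counted in 14 to 36 reads per library, above the upper limit of 3.69 reads in the exact 95% interval of a count of 0. It had 0.207, 0.234, 0.149, 0.155 and 0.147 CPM in P2ry14-null libraries 1 to 5, and 0.114, 0.176, 0.160, 0.211 and 0.184 CPM in WT libraries 1 to 5. The groups overlapped, and counting error alone was large: 36 reads in P2ry14-null library 2 have an exact 95% interval from 25.2 to 49.8 reads, and 15 in WT library 1 one from 8.40 to 24.7. P2ry14-null minus WT gave 0.06 ± 0.22 on the log2 scale (SE; edgeR adjusted p = 0.999; 95% interval from -0.42 to 0.55). It was -0.08 without P2ry14-null library 2, the library with markers of other cells, and -0.04 without WT library 1. Nr1d1 shares 263 of its exon bases (8.55%) with Thra, a thyroid hormone receptor gene on the opposite strand, which had 14.02 to 16.1 CPM in P2ry14-null and 12.3 to 16.0 CPM in WT. The strand setting of the counting is not given in the sources used here, so reads of both genes there cannot be told apart.

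Nr1d2 (gene ID 353187, chr14:18204056-18239106, minus strand), encoding REV-ERB beta, had 5.48 to 7.27 CPM in P2ry14-null (median 5.65) and 5.58 to 7.09 CPM in WT (median 6.18). The groups overlapped, with a log2 difference of -0.04 ± 0.10 (SE; edgeR adjusted p = 0.999).

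Dbp and Noct are outputs of the loop. Dbp (gene ID 13170, chr7:45705093-45710203, plus strand), encoding a transcription factor of the PAR bZIP family, had 1.90 to 2.36 CPM in P2ry14-null (median 2.15) and 1.72 to 2.25 CPM in WT (median 1.94). The log2 difference came to 0.12 ± 0.10 (SE; edgeR adjusted p = 0.999), with 0.07 without WT library 3 and likewise without P2ry14-null library 5. Without WT library 2 it was 0.17. Sphk2, on the opposite strand, overlaps 18.0% of the exon bases of Dbp. Noct (gene ID 12457, chr3:51224447-51251654, plus strand), encoding the rhythmic phosphatase nocturnin, had 41.1, 33.3, 34.8, 41.2 and 40.3 CPM in P2ry14-null libraries 1 to 5, and 43.3, 43.6, 40.7, 42.3 and 36.6 CPM in WT libraries 1 to 5. The 2 lowest values were in P2ry14-null, but WT library 5 lay below the other 3 P2ry14-null libraries. Noct is the only clock gene of the 10 on the chromosome of P2ry14, with a gap of 7.86 Mb, and its log2 difference came to -0.12 ± 0.07 (SE; edgeR adjusted p = 0.999). Leaving out P2ry14-null library 2 gave -0.07, and leaving out library 3 of the same genotype gave -0.08. Without WT library 5 the difference was -0.16 (edgeR adjusted p = 0.979).

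Levels per length of exon (RPKM, the CPM divided by kilobases of exon, with exon unions from GENCODE vM21) put Per1 far above the rest. Per1 had 46.0 ± 4.81 RPKM in P2ry14-null and 54.0 ± 10.9 RPKM in WT (SD, n = 5 each). Per2 followed with 10.5 ± 0.69 RPKM in P2ry14-null and 12.05 ± 0.55 RPKM in WT, and Cry1 with 9.31 ± 0.60 RPKM in P2ry14-null and 9.19 ± 0.34 RPKM in WT. The genes between these repressors and the scarce end of the order were Noct, Arntl, Cry2 and Nr1d2, with means of 3.58, 2.55, 1.998 and 1.12 RPKM in P2ry14-null and 3.87, 2.52, 2.15 and 1.15 RPKM in WT. Clock had 0.827 RPKM in P2ry14-null and 0.729 RPKM in WT, and Dbp 0.709 RPKM in P2ry14-null and 0.654 RPKM in WT. Nr1d1 came last, at 0.058 RPKM in P2ry14-null and 0.055 RPKM in WT. The order of means was the same in both groups. Neighbours that overlapped in their libraries were Clock and Dbp in both groups, Per2 and Cry1 in P2ry14-null, and Arntl and Cry2 in WT. All other neighbours in this order were separate in every library of the group. That separation does not cover error in the exon lengths, which all libraries share, and the annotation used in counting is not given. By CPM, Noct lay above Cry1, with means of 38.1 and 31.1 CPM in P2ry14-null and 41.3 and 30.7 CPM in WT. In no library did Nr1d1 come near Nr1d2 or Dbp: its highest level was 0.076 RPKM in P2ry14-null and 0.069 RPKM in WT, against lowest Dbp levels of 0.635 RPKM in P2ry14-null and 0.573 RPKM in WT.

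**Figure D2:**
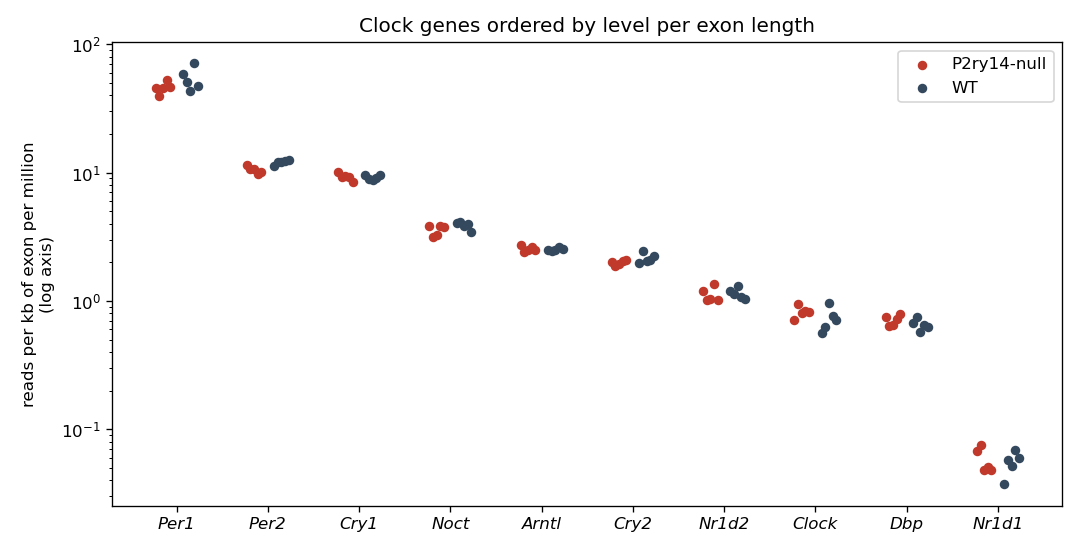
Level of the 10 clock genes per exon length (vertical log axis, RPKM), ordered by the WT mean, with a point for each of the 5 P2ry14-null (left) and 5 WT (right) libraries. Per1 stands highest near 46.0 and 54.0 RPKM in P2ry14-null and WT, and Nr1d1 lowest near 0.058 and 0.055 RPKM.

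Of 24 other genes of the clock pathway, 21 passed the filter on low counts and 0 passed the edgeR test. Of the 21, 11 lay above 0 and 10 below, with a median log2 fold change of 0.003. The 4 with the smallest p were Nfil3, a repressor that opposes DBP at D-boxes, at -0.14 ± 0.07 (SE), the CLOCK repressor gene Ciart at -0.44, the DBP relative Hlf at 0.53 and the casein kinase gene Csnk1e, whose product phosphorylates PER proteins, at 0.09 (edgeR adjusted p = 0.999 for all 4). Bhlhe40, which encodes a repressor of BMAL1 and CLOCK and was singled out after its values were seen, had 187 ± 19.6 RPKM in P2ry14-null and 187 ± 8.08 RPKM in WT, above every other clock gene examined. Nfil3 had 111 ± 6.86 RPKM in P2ry14-null and 122 ± 11.6 RPKM in WT. Rora, which encodes an activator of Arntl, had 0.032 RPKM in P2ry14-null and 0.024 RPKM in WT. Rorb was counted in 0 to 2 reads per library and failed the filter, as did the BMAL1 relative Arntl2.

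**Figure D3:**
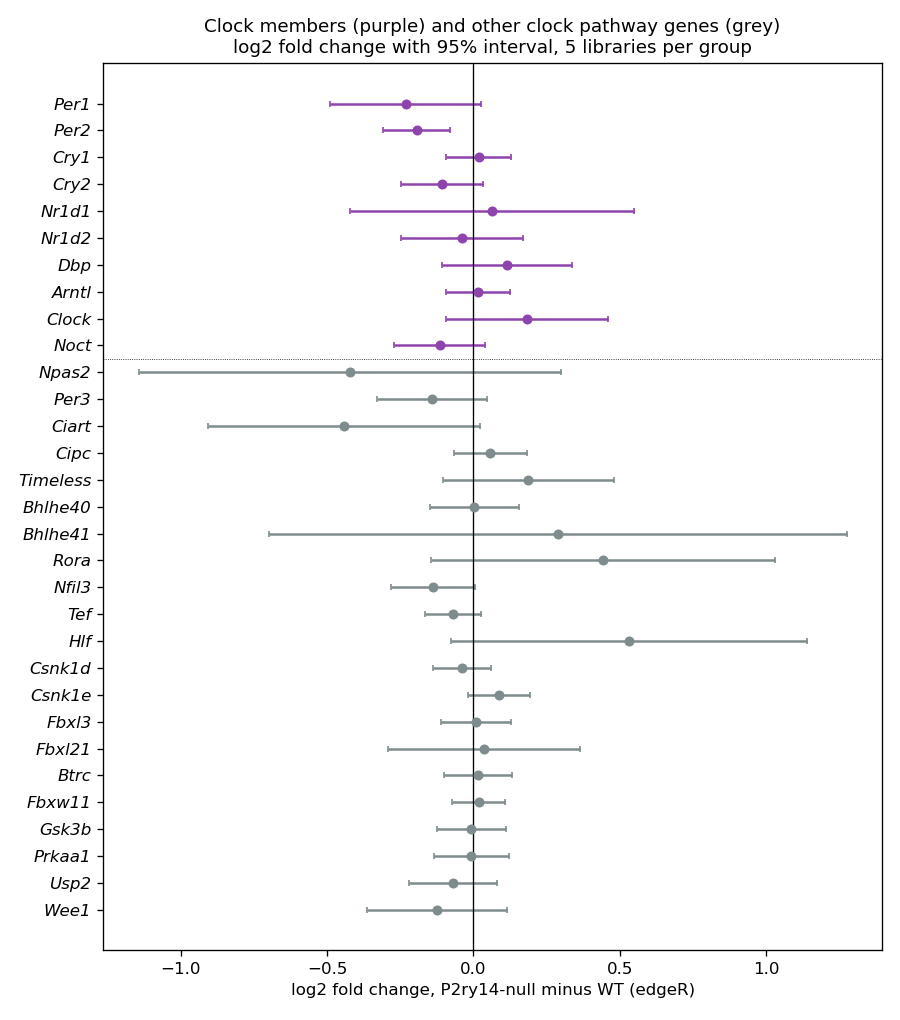
Log2 fold change, P2ry14-null minus WT, of the 10 clock members (purple, above the dotted line) and 21 other clock pathway genes (grey), with 95% intervals from edgeR over 5 libraries per group. Most points lie within 0.2 of 0, and the widest intervals belong to genes of few reads such as Npas2, Bhlhe41 and Hlf.

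Agreement between libraries was described by the SD of log2 CPM within groups, pooled over both. Over all 15586 tested genes this SD had a median of 0.144 and quartiles of 0.092 and 0.279. Arntl had 0.064, lower than all but 8.36% of the tested genes, and Cry1 (0.076), Per2 (0.082) and Cry2 (0.096) also lay under the median. Noct (0.128) and Dbp (0.139) were just under it and Nr1d2 (0.159) just above. Over the 8824 tested genes of at least 5 CPM the lower quartile was 0.075, the median 0.098 and the upper quartile 0.133. Against these, Arntl lay under the lower quartile, and Cry1 and Per2 between it and the median. Cry2 lay just under the median, Noct near the upper quartile, and Nr1d2, Per1 and Clock above the upper quartile. Per1 (0.225), Clock (0.238) and Nr1d1 (0.294) were the most variable of the 10, and for Nr1d1 counting error alone gives a coefficient of variation of 20.5%, beside 22.1% observed in P2ry14-null and 21.2% in WT. For Per1 it gives 0.508%, beside 10.5% observed in P2ry14-null and 20.2% in WT.

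The distance between extreme libraries differed among the clock genes. Over all 10 libraries the highest level was 2.04 times the lowest for Nr1d1, 1.80 times for Per1 and 1.73 times for Clock. It was 1.38 times the lowest for Dbp, 1.33 times for Nr1d2 and 1.29 times for Per2. The median of this ratio was 1.39 over all tested genes and 1.246 over the 8824 of at least 5 CPM, so that Nr1d2 and Per2, both above 5 CPM, lay under the first median and over the second. Ratios to Arntl were also taken within each library. Per1 over Arntl (CPM) ran from 12.3 to 14.97 in P2ry14-null and from 12.9 to 20.1 in WT, the widest of the 4 ratios taken. Per2 over Arntl ran from 2.86 to 3.49 in P2ry14-null and from 3.47 to 3.88 in WT, Nr1d2 over Arntl from 0.294 to 0.365 in P2ry14-null and from 0.292 to 0.377 in WT, and Dbp over Arntl from 0.104 to 0.126 in P2ry14-null and from 0.091 to 0.123 in WT. All 4 ratios overlapped between genotypes, that of Per2 by a single pair of libraries at the edge. No library passed Dixon's criterion, a gap above 0.71 of the range, in any of 20 sets of 5 values (10 genes in both groups). With 5 values only a very distant library can pass, so a deviating library is not excluded.

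**Figure D4:**
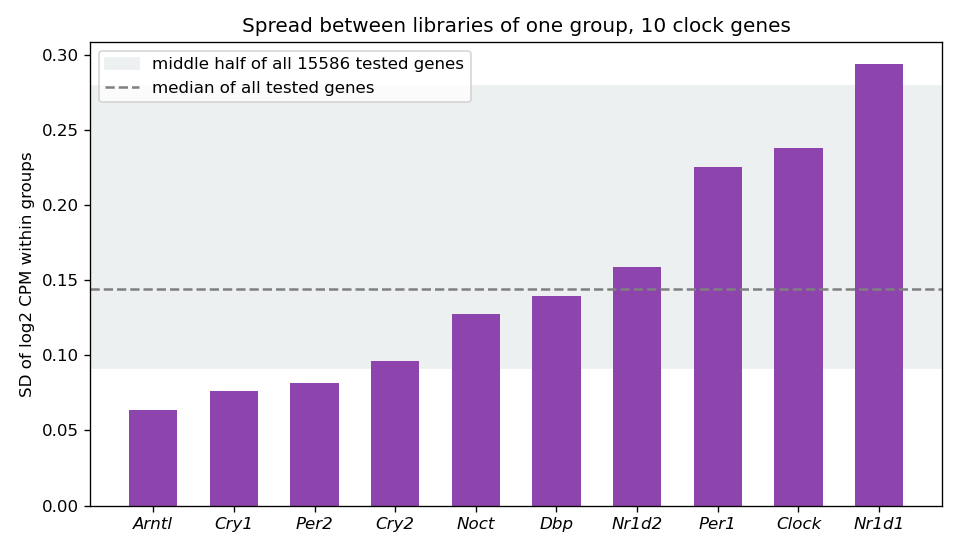
SD of log2 CPM between libraries of a group (vertical axis, starting at 0) for the 10 clock genes, ordered from low to high, with the quartile range of all 15586 tested genes shaded and their median dashed. Arntl has the lowest SD (0.064) and Nr1d1, counted in 14 to 36 reads, the highest (0.294).

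None of 4 pairs of clock genes passed a test for moving together or against each other. With group means removed, log2 CPM of Arntl and Nr1d1, which oppose each other in the loop, had a Pearson's r of 0.11 (exact permutation p = 0.780) and a Spearman's rho of 0.13 (exact permutation p = 0.750) over 10 libraries. Arntl and Dbp had r = 0.20 (exact permutation p = 0.590) and rho = 0.08 (p = 0.846), Nr1d1 and Dbp r = -0.20 (exact permutation p = 0.594) and rho = -0.27 (p = 0.467), and Per1 and Per2 r = -0.26 (exact permutation p = 0.438) and rho = -0.26 (p = 0.476). All 4 relations had Benjamini-Hochberg adjusted permutation p-values of 0.780 for r and 0.846 for rho. Without the 2 libraries farthest from the median of the gene named first, r was 0.37, -0.25, 0.09 and -0.68 in the same order. Nr1d1 varied by 22.1% in P2ry14-null and 21.2% in WT, where counting error alone gives 20.5%. Arntl differed by only 1.15 times between its extreme libraries. Pairs with either gene could thus hardly show a relation here.

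Per1 was also set against 6 genes of signals known to act on it or of cell handling, a comparison added after its levels were seen. Per1 and Egr1 had r = 0.75 (exact permutation p = 0.022, adjusted over 6 relations 0.130) and rho = 0.59 (exact permutation p = 0.094, adjusted 0.249), with r = 0.56 without WT libraries 3 and 4. Per1 and Hspa1a had r = 0.65 (exact permutation p = 0.067, adjusted 0.200) and rho = 0.49 (adjusted 0.249), with r = 0.40 without the same libraries. Dnajb1 (r = 0.31), Fos (0.26) and the glucocorticoid targets Fkbp5 (0.18) and Tsc22d3 (-0.28) had adjusted permutation p-values of 0.551 for r. Their rho was 0.48, 0.58, 0.09 and -0.07 in the same order. Adjusted permutation p-values for rho were 0.249 for Dnajb1 and Fos and 0.881 for Fkbp5 and Tsc22d3. By rho, Fos and Dnajb1 thus lay near Egr1 and Hspa1a. No relation passed the adjusted threshold.

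Genes whose pattern over the 10 libraries was most like that of Arntl, by r with group means removed among 8472 genes of at least 5 CPM and without provisional names, were Lars (r = 0.95), Sdccag8 (0.93) and Mcm4 (0.92). For Nr1d1 they were Kcnab2 (0.94), Nomo1 (0.93) and Nsdhl (0.92). These values describe the top of a ranking of many genes over 10 libraries, and for Nr1d1 they rest on 14 to 36 reads per library.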

How the data were processed

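The authors deposited raw counts, as whole reads assigned to each gene, with mm10 coordinates and a column for each of 10 libraries. Tools named in the submitters' processing notes were featureCounts 1.5.0-p1 of Subread, STAR 2.5 and DESeq2, on mm10. Annotation release, strand setting and handling of multi-mapping reads: not given in the sources used here. Groups and replicate numbers came from the sample titles, which equal the column names. The lowest chi-square per gene between libraries of a group was 17.2, so none of these columns was a copy of another of its group.

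edgeR 4.0.16 (R 4.3.3) was run on the counts across all genes with TMM factors, its default low-count filter and genotype alone, adjusted by Benjamini-Hochberg over 15586 genes at 0.05. SE was taken as log2 fold change over root F, and 95% intervals use a t quantile. The fit and the correlation test were tested on simulated data first. CPM uses TMM-scaled library sizes, and log2 CPM a prior count of 2. Intervals of counts, with the limit for a count of 0, are exact Poisson intervals and cover counting error only. Correlations used exact two-sided permutation within both groups (14400 arrangements).

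Exon lengths and overlaps are from GENCODE vM21 (GRCm38), promoters from RefSeq. Alternatives were RLE and upper-quartile factors, no filter, DESeq2 1.42.0, limma-voom (limma 3.58.1), the replicate number as a block, and each library left out. Deviations of libraries sharing a replicate number correlated at -0.093 to 0.094 over all tested genes, which cannot exclude pairing in some of the genes. The genes and lists were chosen with earlier results of these data known. Named genes were the members, the 4 other clock genes of smallest p, the 3 most alike to Arntl and to Nr1d1, P2ry14 and 6 genes that may move with the members (Hspa1a, Dnajb1, Egr1, Fos, Fkbp5 and Tsc22d3). Bhlhe40, Bhlhe41, Npas2, Arntl2, Rora, Rorb, Thra and the alveolar macrophage genes were named after their values were seen.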

Additional observations from a re-analysis of the deposited data

How the results depend on the processing

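Under all 16 alternatives 0 clock genes and 0 other clock genes were called, and the median log2 fold change of the 10 clock genes ran from -0.056 to 0.011. The count over all genes was 6 in edgeR, 19 with DESeq2 (7 higher, 12 lower), 6 with the replicate number as a block (1 higher, 5 lower) and between 3 and 5 with single libraries left out. The block changed no call of a clock gene. It gave Per1 a log2 fold change of -0.22 ± 0.08 (SE), with an unadjusted edgeR p of 0.024 against 0.073 without the block. For Clock the unadjusted edgeR p was 0.096 with the block and 0.177 without. Directions changed only in values near 0: with single libraries left out, log2 fold changes ran from -0.014 to 0.053 for Cry1, from -0.012 to 0.039 for Arntl, from -0.076 to 0.166 for Nr1d1 and from -0.114 to 0.014 for Nr1d2. Correlations changed sign too, from -0.136 to 0.606 for Arntl with Nr1d1, from -0.112 to 0.454 for Arntl with Dbp and from -0.345 to 0.032 for Nr1d1 with Dbp with single libraries left out, and to 0.238 for Per1 with Per2 without centring of group means. With single libraries left out, Per1 with Per2 ran from -0.622 (without WT library 4) to -0.085 (without P2ry14-null library 4). With the means of the replicate numbers also removed, as a block, Arntl with Nr1d1 had 0.681. The cause was not tested. Within-group SDs stayed within 1.5 times in all 110 alternatives. For Nr1d1, 14 to 36 reads per library limit every value.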
